A study of Mus musculus with 4 samples.

Results

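The glucocorticoid-induced genes described here are 10 genes, Fkbp5, Sgk1, Tsc22d3, Zbtb16, Klf9, Hif3a, Mt1, Mt2, Pdk4 and Errfi1, of the 33696 genes in the deposited matrices. They were chosen by symbol as genes known to respond to glucocorticoids, and each symbol matched 1 gene. Their RNA was measured by single-nucleus RNA sequencing of microdissected cortex in 2 pregnant and 2 non-pregnant female mice. Both groups were wildtype C57BL/6JRj mice of about 12 weeks, and the pregnant mice, from timed matings, were taken at E13.5, the stage of their embryos. Nuclei of both groups were isolated with actinomycin D, which blocks new transcription. Each mouse gave 1 library, so each group held 2 libraries. The p-values of fits with all 4 libraries measure the spread between animals. A fit with 1 library left out sets 2 mice against 1, so its p-value takes no account of spread within the group of 1. The labels do not name the cortical area that was dissected.

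Glucocorticoids, cortisol in humans and corticosterone in mice, bind a receptor held in the cytoplasm by heat shock proteins. The bound receptor enters the nucleus and binds palindromic DNA elements near its target genes, many of which are switched on quickly. Their level in blood follows stress and the daily cycle, and in the brain they also bind the mineralocorticoid receptor.

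The promoter windows of the table used here came from RefSeq (build GRCm38.p6) and ran from 250 bases before to 50 bases after a start. It held 17 windows for 9 of the 10 genes, and Zbtb16 was not among them. The full palindromic element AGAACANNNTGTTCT, searched on both strands, occurred in 3 of the 32851 windows in the table (0.00913%), and 1 of these 3 belonged to Sgk1. A single arm of the palindrome, AGAACA, which also lies inside the full element, occurred in 4 of the 17 windows and in 19.0% of all windows. Those 4 windows belonged to Sgk1 and Tsc22d3. The inner letters ACANNNTGT, also part of the full element, occurred in 3 of the 17 windows, of Sgk1 and Mt1, and in 6.85% of all windows. The window of Sgk1 with the full element is shown first and a window of Tsc22d3 with a single arm second. The Sgk1 window lies at chr10:21993640-21993939 on the plus strand and the Tsc22d3 window at chrX:140600473-140600772 on the minus strand, and capitals mark the single arms and the full element.
Sgk1: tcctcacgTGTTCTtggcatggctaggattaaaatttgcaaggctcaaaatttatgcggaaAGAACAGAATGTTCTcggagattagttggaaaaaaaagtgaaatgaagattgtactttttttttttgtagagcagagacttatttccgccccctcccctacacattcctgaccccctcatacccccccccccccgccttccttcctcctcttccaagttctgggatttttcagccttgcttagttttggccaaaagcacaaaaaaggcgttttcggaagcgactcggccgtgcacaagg
Tsc22d3: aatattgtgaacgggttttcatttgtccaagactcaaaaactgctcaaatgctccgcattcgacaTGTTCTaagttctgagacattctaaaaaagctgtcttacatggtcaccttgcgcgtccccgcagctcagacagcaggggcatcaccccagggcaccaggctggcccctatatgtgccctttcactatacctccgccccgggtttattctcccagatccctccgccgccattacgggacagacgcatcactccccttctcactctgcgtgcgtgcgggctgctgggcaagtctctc
Mt1 and Mt2 are also induced by metals, through the core TGCNCNC, which occurred in 51.0% of all windows, and at 4 or more places in 2.30% of them. The Mt1 window held it at 3 places and the Mt2 window at 6. These windows, chr8:94178839-94179138 for Mt1 and chr8:94172368-94172667 for Mt2, both on the plus strand, are shown because the 2 genes are neighbours whose starts lie 6471 bases apart, and capitals mark the metal core.
Mt1: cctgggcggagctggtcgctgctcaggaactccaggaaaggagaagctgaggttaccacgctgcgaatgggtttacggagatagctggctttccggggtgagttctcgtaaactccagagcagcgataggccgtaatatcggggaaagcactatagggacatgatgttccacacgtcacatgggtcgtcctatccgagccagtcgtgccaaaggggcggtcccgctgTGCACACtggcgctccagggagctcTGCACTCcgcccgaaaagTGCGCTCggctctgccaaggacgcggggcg
Mt2: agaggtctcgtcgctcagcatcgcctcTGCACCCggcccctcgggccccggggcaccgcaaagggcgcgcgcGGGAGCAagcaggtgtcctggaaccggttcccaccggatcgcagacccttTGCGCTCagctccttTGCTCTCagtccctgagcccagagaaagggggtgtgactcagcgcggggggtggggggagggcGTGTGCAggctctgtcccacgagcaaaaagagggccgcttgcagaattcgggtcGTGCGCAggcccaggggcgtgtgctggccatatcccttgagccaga
A match is a description of letters, and no binding was measured in this study.

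The 4 libraries held 26816 barcodes, 6680 and 6847 pregnant and 6932 and 6357 non-pregnant, and summed to between 97875766 and 116860425 UMIs each (a UMI is a tag that marks 1 captured molecule). Non-pregnant replicate 2 was the deepest. Of 26689 distinct barcodes, 20 to 31 were shared by any pair of libraries. After filtering 25033 nuclei remained, and 15 cell types were tested, each with 50 nuclei or more per library. A type name means that a cluster resembled the type by its markers. Clusters whose mean share differed over 8-fold between groups held 875 and 804 pregnant nuclei and 103 and 1 non-pregnant nuclei, and they entered no cell type. Upper-layer L2/3 intratelencephalic (IT) neurons made up 15.7% of pregnant and 27.8% of non-pregnant nuclei. The largest cluster of unequal share scored nearest to L2/3 IT neurons but is not counted in these percentages. It held 507 and 384 pregnant and 93 and 1 non-pregnant nuclei, so part of the gap comes from the naming rule. Astrocytes made up 3.67% and 2.18%, and microglia 3.79% and 5.37%, of pregnant and non-pregnant nuclei.

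Levels are given as CPM, the UMIs of a gene per 1000000 UMIs of the same nuclei, summed over nuclei. None of the 10 genes was called in the whole library by edgeR at an adjusted p below 0.05, where 1.18% of 20914 genes tested were called. The fitted log2 fold change (pregnant over non-pregnant) was above 0 for 9 of the 10, as for 51.6% of all genes, with a median of 0.37 against 0.0069 over all genes. For 5 of the 10 the unadjusted p was below 0.05, as for 2713 of all genes. DESeq2 called 3, Tsc22d3, Hif3a and Mt1, and 1.92% of its genes. Pregnant libraries lay above non-pregnant ones without overlap for 6 of the 10 genes, and 23.3% of all genes did so. In such sums fewer cells of a type and less RNA per cell cannot be told apart.

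Fkbp5 encodes a co-chaperone that lowers the receptor's affinity for its hormone and so closes a feedback loop. It had 24.8 and 25.5 CPM in pregnant libraries, against 26.6 and 22.2 CPM in non-pregnant libraries. The groups overlapped, and the log2 fold change was 0.03 (SE 0.0991, adjusted p = 0.946 by edgeR). Sgk1, a kinase that regulates ion channels and transporters, had 101 and 102 CPM in pregnant and 98.8 and 93.0 CPM in non-pregnant libraries. Its groups did not overlap, but the difference was small, with a log2 fold change of 0.07 (SE 0.0707, adjusted p = 0.773 by edgeR). Errfi1, an inhibitor of the epidermal growth factor receptor, had 32.3 and 35.9 CPM in pregnant and 44.7 and 31.5 CPM in non-pregnant libraries. It was the only one of the 10 genes with a fold change below 0, at -0.17 on the log2 scale (SE 0.174, adjusted p = 0.789 by edgeR), and its pregnant values lay between the 2 non-pregnant ones.

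The transcription regulators were not alike. Tsc22d3 encodes the glucocorticoid-induced leucine zipper protein, an anti-inflammatory regulator. It had 9.38 and 8.86 CPM in pregnant and 6.66 and 6.11 CPM in non-pregnant libraries. The groups did not overlap, with a log2 fold change of 0.50 (SE 0.119), and the adjusted p of 0.0851 by edgeR missed the threshold. Hif3a, a member of the hypoxia-inducible factor family, had 3.98 and 4.74 CPM in pregnant and 2.86 and 2.43 CPM in non-pregnant libraries. It came nearest to a call, at a log2 fold change of 0.71 (SE 0.151, adjusted p = 0.0591 by edgeR). Zbtb16, a zinc finger repressor also known as PLZF, had 207 and 181 CPM in pregnant and 186 and 142 CPM in non-pregnant libraries. Klf9, a Krüppel-like factor that restrains neuronal growth programs, had 59.6 and 66.1 CPM in pregnant and 71.8 and 43.7 CPM in non-pregnant libraries. For both the groups overlapped, with log2 fold changes of 0.23 for Zbtb16 (SE 0.166, adjusted p = 0.672 by edgeR) and 0.11 for Klf9 (SE 0.304, 0.940).

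The metal-binding and metabolic genes were low and higher in both pregnant libraries. Mt1 and Mt2 encode metallothioneins, small proteins that bind zinc and copper, and as close relatives they may share reads. Mt1 had 4.24 and 5.91 CPM in pregnant and 3.57 and 2.36 CPM in non-pregnant libraries, and Mt2 had 1.18 and 1.45 CPM in pregnant and 0.890 and 0.580 CPM in non-pregnant libraries. Their log2 fold changes were 0.76 (SE 0.224, adjusted p = 0.192 by edgeR) for Mt1 and 0.84 (SE 0.238, 0.146) for Mt2. Pdk4 encodes a kinase that shuts off pyruvate dehydrogenase and so shifts cells towards fat as a fuel. It was too sparse for a level, with 81 and 75 UMIs in pregnant and 58 and 51 UMIs in non-pregnant libraries (log2 fold change 0.54, SE 0.237, adjusted p = 0.373 by edgeR). None of the 3 genes passed.

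**Figure D1:**
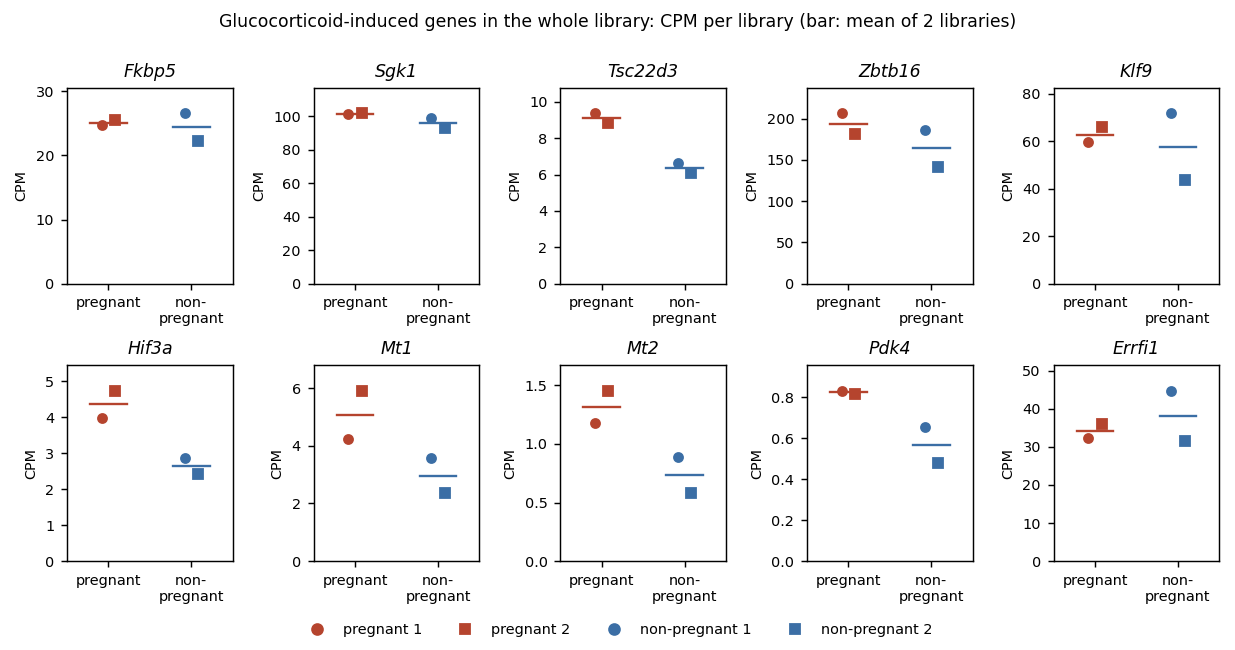
CPM of the 10 glucocorticoid-induced genes in each whole library, pregnant (red) and non-pregnant (blue), with circles for replicate 1, squares for replicate 2 and bars for the mean of 2 libraries. Non-pregnant replicate 2 is the lowest point in all 10 panels, and pregnant points lie above both non-pregnant points for 6 genes.

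Non-pregnant replicate 2 had the lowest CPM of the 4 libraries for all 10 genes, and it was the lowest library for 26.5% of the 20914 genes tested. Within the non-pregnant group, replicate 1 was 1.65-fold above replicate 2 for Klf9, 1.42-fold for Errfi1, 1.54-fold for Mt2 and 1.52-fold for Mt1. The difference between pregnant and non-pregnant means was smaller than that for Klf9, at 1.09-fold, and larger for Mt2, at 1.79-fold. Immediate early genes, which follow neuronal activity and tissue handling, were also low in that library. The 9 such genes summed to 251 and 255 CPM in pregnant libraries, against 333 and 63.7 CPM in non-pregnant libraries, and none was called in the whole library. Junb, one of them, had 41.7 and 32.6 CPM in pregnant and 38.3 and 5.46 CPM in non-pregnant libraries (log2 fold change 0.76, adjusted p = 0.901 by edgeR). The 8 chaperones that hold the receptor summed to 454 and 523 CPM in pregnant and 463 and 329 CPM in non-pregnant libraries. The 5 red blood cell genes summed to 29.6 and 37.1 CPM in pregnant and 11.5 and 8.40 CPM in non-pregnant libraries, and the part of any of these in the results was not tested.

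Leaving out 1 library changed which genes passed. Non-pregnant replicate 2 had the lowest CPM for all 10 genes, and without non-pregnant replicate 1 it was the only non-pregnant library. The upward direction in that fit was therefore set by this 1 mouse, and the fit cannot decide whether the genes rise in pregnancy. Without non-pregnant replicate 1, 6 of the 10 rose, Tsc22d3, Zbtb16, Klf9, Hif3a, Mt1 and Mt2, where 7.82% of all genes tested were called. Without non-pregnant replicate 2, Errfi1 alone was called and it fell, by 0.41 on the log2 scale (adjusted p = 9.38e-04 by edgeR), where 4.99% were called. In that fit non-pregnant replicate 1, which had the highest Errfi1 of the 4 libraries, was the only non-pregnant library. The fall was therefore set by this 1 mouse, and the fit cannot decide whether Errfi1 falls in pregnancy. Without non-pregnant replicate 2 Klf9 had a log2 fold change of -0.21 and Fkbp5 of -0.10. The values were 0.51 for Klf9 and 0.16 for Fkbp5 without non-pregnant replicate 1. None of the 10 was called without pregnant replicate 1 or without pregnant replicate 2, where 0% and 0.00928% of all genes were called. Zbtb16 was at 0.44 without non-pregnant replicate 1 and 0.045 without non-pregnant replicate 2, Mt1 at 1.08 and 0.48, Mt2 at 1.16 and 0.54, and Pdk4 at 0.77 and 0.31. Hif3a stayed between 0.59 and 0.82 and Tsc22d3 between 0.41 and 0.58 in these 4 fits. Both kept their direction, as did Sgk1, Zbtb16, Mt1, Mt2 and Pdk4. The groups of Hif3a and Tsc22d3 did not overlap, so leaving out 1 library could hardly reverse them.

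**Figure D2:**
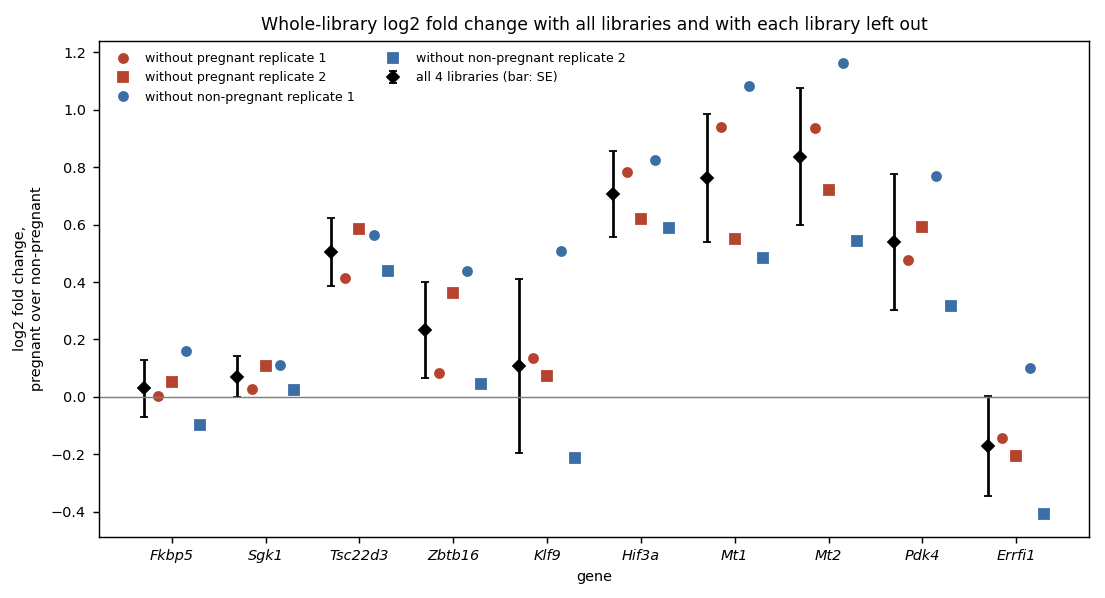
Log2 fold change (pregnant over non-pregnant) in the whole library for each gene, with all 4 libraries (black diamonds, bars show the SE) and with each library left out in turn (red, a pregnant library; blue, a non-pregnant library). The 2 blue points of Fkbp5, of Klf9 and of Errfi1 lie on opposite sides of 0. All points of Sgk1, Tsc22d3, Zbtb16, Hif3a, Mt1, Mt2 and Pdk4 lie above 0.

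The genes differed in their leading cell types, and some genes shared one. The order of types is a description, since the types were made from the same counts. Fkbp5 was highest in microglia, at 352 ± 107 CPM (SD, n = 4), the resident immune cells, and the next tested types, oligodendrocytes with 49.0 CPM and L5 extratelencephalic (ET) neurons with 46.0 CPM, overlapped each other. Microglia and these types did not overlap. Fibroblasts, with 10 and 14 pregnant and 5 and 14 non-pregnant nuclei, had 311 ± 140.4 CPM and overlapped microglia. Tsc22d3 was highest in oligodendrocytes, the myelin-forming cells, at 210.3 ± 31.8 CPM, followed by astrocytes with 71.4 ± 20.4 and microglia with 33.1 ± 4.81 CPM. Pvalb interneurons had the highest mean level of Tsc22d3 among neurons, at 4.88 CPM. Errfi1 was also highest in oligodendrocytes, at 145 ± 36.1 CPM, and then in the Lamp5 or Sncg interneurons with 75.4 ± 23.1 and microglia with 63.2 ± 14.6 CPM.

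Among tested types Sgk1 was highest in Lamp5 or Sncg and Zbtb16 in Vip interneurons, but neither was high in all interneurons. Sgk1 had 219 ± 10.0 CPM in Lamp5 or Sncg neurons, 202 ± 23.6 CPM in oligodendrocyte precursors (OPC) and 194 ± 116 CPM in oligodendrocytes, which overlapped, and 3.96 ± 1.12 CPM in astrocytes. Newly formed oligodendrocytes, too few to test, had 226 ± 75.4 CPM, and Sst interneurons 85.7 CPM of Sgk1. Zbtb16 had 494 ± 18.1 CPM in Vip and 417 ± 47.1 CPM in Lamp5 or Sncg interneurons, which overlapped, and 287 ± 58.3 CPM in L5/6 near-projecting (NP) neurons. Sst and Pvalb interneurons had 107 and 92.9 CPM of Zbtb16, below each of the excitatory types. Its lowest type was microglia, at 9.32 ± 3.29 CPM. Endothelial cells, with 46 and 36 pregnant and 16 and 19 non-pregnant nuclei and not tested, had 311 ± 97.0 CPM of Zbtb16 and 223 ± 39.3 CPM of Klf9.

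Astrocytes, the glia that supply neurons and clear transmitter, led among tested types for the other 5 genes. Hif3a had 147 ± 31.2 CPM there, against 13.7 ± 6.96 in oligodendrocytes and 5.84 ± 2.07 in L5/6 NP neurons. Mt1 had 111 ± 37.3 CPM in astrocytes, 13.4 ± 2.93 in oligodendrocytes and 9.49 ± 3.65 in OPC, and Mt2 had 38.1 ± 11.9, then 2.53 ± 2.30 in OPC and 1.85 in microglia. Pdk4 had 33.6 ± 5.04 CPM in astrocytes and 9.45 ± 4.19 in oligodendrocytes, with 166 and 67 UMIs in all, and no other tested type exceeded a mean of 0.0837 CPM. Klf9 had 174 ± 19.4 CPM in astrocytes, 121 ± 34.0 in oligodendrocytes and 92.3 ± 21.2 in L6 corticothalamic (CT) neurons, and its lowest type was Pvalb, at 27.2 CPM. For Hif3a, Mt1, Mt2 and Pdk4 astrocytes did not overlap the next tested type, while for Klf9 astrocytes and oligodendrocytes did.

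**Figure D3:**
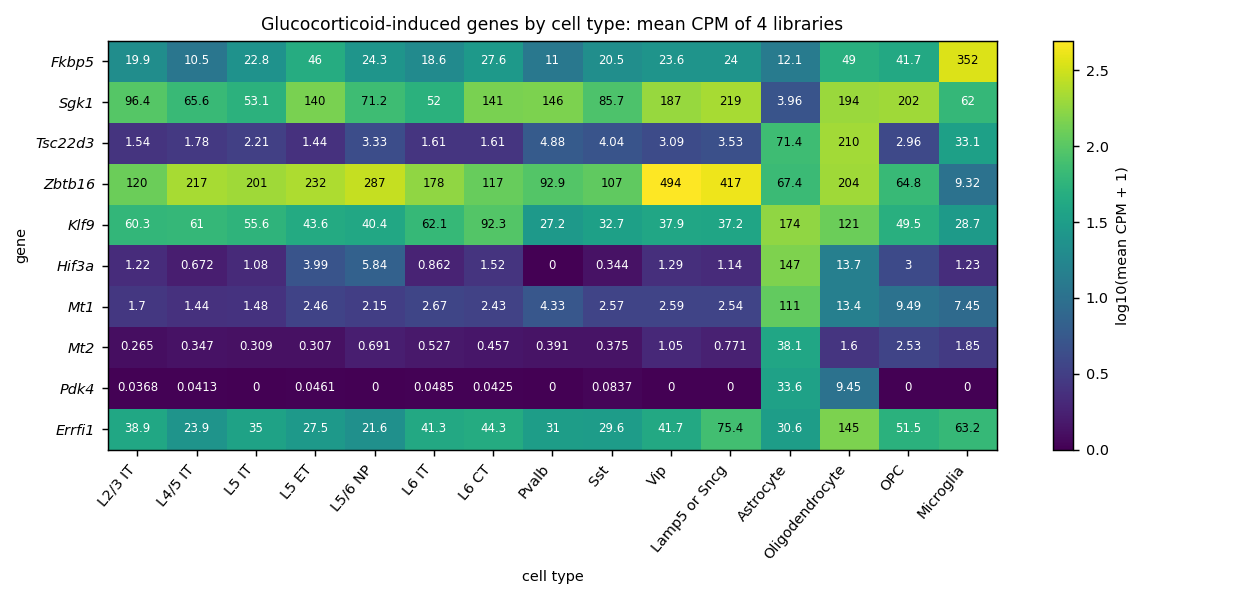
Mean CPM of 4 libraries (printed in each cell and coloured on a log10 scale of CPM + 1) for the 10 genes in rows and the 15 tested cell types in columns. Fkbp5 stands out in microglia, Hif3a, Mt1, Mt2 and Pdk4 in astrocytes, Tsc22d3 and Errfi1 in oligodendrocytes, and Zbtb16 in Vip and in Lamp5 or Sncg interneurons, while Sgk1 is spread over several types.

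Nr3c1, the glucocorticoid receptor, was highest in microglia among the tested types, at 439.8 ± 36.6 CPM, and lowest in Pvalb interneurons, at 105 ± 5.83 CPM. In the whole library it had 223 and 199 CPM in pregnant and 199 and 203 CPM in non-pregnant libraries, with a log2 fold change of 0.06 (SE 0.0894, adjusted p = 0.866 by edgeR). Nr3c2, the mineralocorticoid receptor, was highest in Vip interneurons among them, at 728 ± 107 CPM, and astrocytes followed with 498 ± 29.2 CPM. It had 209 and 188 CPM in pregnant and 157 and 168 CPM in non-pregnant libraries. The groups of Nr3c2 did not overlap, and its log2 fold change of 0.28 (SE 0.0903, adjusted p = 0.204 by edgeR) missed the threshold.

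Over the 15 types, 101 pairs of a glucocorticoid-induced gene and a type had enough UMIs to be tested and 1 was called (0.990%), against 0.714% of all 179612 pairs of a gene and a type. The fold change was above 0 in 66.3% of the 101 pairs and in 50.2% of all pairs. Their median log2 fold change was 0.13, against 0.0011 over all pairs. The unadjusted p was below 0.05 for 25 of the 101 pairs, 23 of them higher in pregnant mice, and for 8.70% of all pairs. Tsc22d3 and Mt1 had a fold change above 0 in each of the 11 and 8 types in which they were tested. Fkbp5 was above 0 in 6 of 15 and Errfi1 in 5 of 15 types. Non-pregnant replicate 2 was the lowest library in 83 of 150 pairs, tested or not. In those pairs a rise without non-pregnant replicate 1 was set by this 1 mouse and cannot decide whether the gene rises in pregnancy. Non-pregnant replicate 1 was the highest library in 53 of the 150 pairs. There a fall without non-pregnant replicate 2 was set by that 1 mouse and cannot decide whether the gene falls. Without non-pregnant replicate 1, 20 pairs were called, all higher in pregnant mice, where 3.61% of all pairs were called. Without non-pregnant replicate 2, 8 were called, 1 higher and 7 lower, where 1.74% were.

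The called pair was Zbtb16 in L5 ET neurons, the large deep-layer cells that project out of the telencephalon. Zbtb16 had 298 and 256 CPM there in pregnant libraries, on 3332 and 2297 UMIs, against 203 and 171 CPM in non-pregnant libraries, on 1102 and 831 UMIs. Pregnant libraries lay above non-pregnant ones, with a log2 fold change of 0.61 (SE 0.118, adjusted p = 0.00846 by edgeR). In this type 2.49% of 13666 genes tested were called. The type came from 1 cluster with 294 and 243 pregnant and 203 and 128 non-pregnant nuclei. Without pregnant replicate 1 the log2 fold change was 0.45 and the call was lost (adjusted p = 0.209 by edgeR), while over all alternatives it ranged from 0.45 to 0.76. The 5 red blood cell genes summed to 15.4 and 10.9 CPM in pregnant and 7.19 and 8.85 CPM in non-pregnant L5 ET nuclei, and Hbb-bs, one of them, was called there (3.84, adjusted p = 9.23e-04 by edgeR). Their part in the result was not tested. L5 ET neurons made up 4.27% of pregnant and 2.64% of non-pregnant nuclei, and a cluster with 145 and 234 pregnant nuclei held no non-pregnant nucleus. The dissected area is not named, and the part of a difference in area between the groups was not tested.

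Of the other deep-layer types, L5/6 NP and L6 IT neurons had Zbtb16 higher in both pregnant libraries, and L5 IT and L6 CT neurons overlapped. The rise was not limited to deep-layer types. Pvalb and Sst interneurons, astrocytes and oligodendrocytes also had Zbtb16 higher in both pregnant libraries, and none of them passed. In L5/6 NP neurons it had 367 and 295 CPM in pregnant and 250.1 and 238 CPM in non-pregnant libraries (log2 fold change 0.47, SE 0.133, adjusted p = 0.0655 by edgeR). In L6 IT neurons the values were 206 and 197 CPM in pregnant and 175 and 133 CPM in non-pregnant libraries (0.40, SE 0.116, 0.174). Neither passed. With 1 library left out the L5/6 NP value ran from 0.27 without pregnant replicate 1 to 0.65 without pregnant replicate 2 (adjusted p = 0.00437 by edgeR, where 1.77% were called), and the L6 IT value from 0.22 without non-pregnant replicate 2 to 0.58 without non-pregnant replicate 1 (2.98e-04, where 3.97% were called). L5 IT neurons had 236 and 193 CPM of Zbtb16 in pregnant and 210.2 and 165 CPM in non-pregnant libraries. L6 CT neurons had 133 and 111 CPM in pregnant and 131 and 92.8 CPM in non-pregnant libraries. Both were called when non-pregnant replicate 1 was left out, L5 IT at 0.41 (adjusted p = 0.0399 by edgeR, where 4.59% of genes were called) and L6 CT at 0.40 (0.00613, where 7.29% were). In the Lamp5 or Sncg interneurons, where Zbtb16 was high, pregnant libraries had 393 and 373 CPM and non-pregnant ones 422 and 481 CPM (-0.22, SE 0.115, adjusted p = 0.820 by edgeR). L2/3 IT neurons overlapped, with 126 and 115 CPM in pregnant and 136 and 105 CPM in non-pregnant libraries. Whether the change in L5 ET neurons differed from that in these types was not tested.

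**Figure D4:**
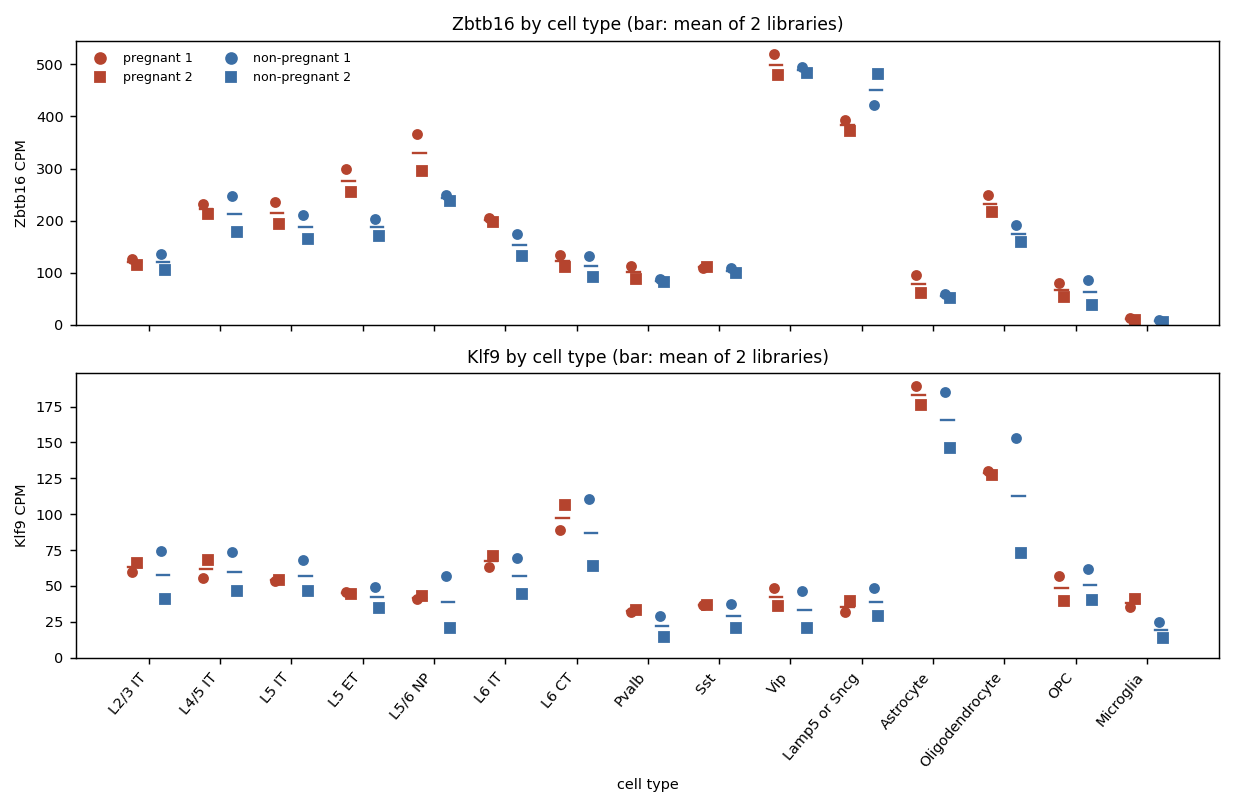
CPM of Zbtb16 (top) and Klf9 (bottom) in each of the 15 tested cell types, with pregnant libraries (red) left of non-pregnant libraries (blue), circles for replicate 1, squares for replicate 2 and bars for the mean of 2 libraries. Zbtb16 is higher in both pregnant libraries in L5 ET, L5/6 NP and L6 IT neurons, Pvalb and Sst interneurons, astrocytes and oligodendrocytes. Klf9 is lowest in non-pregnant replicate 2 in 14 of the 15 types.

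Tsc22d3 was low in neurons, and its log2 fold change was positive in each neuron type with enough UMIs for a test, although none passed. In L5/6 NP neurons, too sparse for a test, it had 2 and 6 UMIs in pregnant and 8 and 3 UMIs in non-pregnant libraries, a lower mean level in pregnant mice. Summed over all excitatory neurons it had 127 and 147 UMIs in pregnant and 99 and 103 UMIs in non-pregnant libraries, which were the deeper in these neurons. Over inhibitory neurons it had 5.86 and 5.12 CPM in pregnant and 2.49 and 3.01 CPM in non-pregnant libraries, on 23 to 60 UMIs. The log2 fold changes were 0.77 (SE 0.195, adjusted p = 0.117 by edgeR) and 0.99 (SE 0.267, 0.214), where 1.18% and 0.233% of all genes were called. The excitatory value was called without non-pregnant replicate 1 (0.90, adjusted p = 0.00540 by edgeR), where 9.90% of all genes were. In astrocytes Tsc22d3 had 84.4 and 81.9 CPM in pregnant and 78.0 and 41.0 CPM in non-pregnant libraries (0.52, SE 0.202, adjusted p = 0.401 by edgeR). That value was 0.95 without non-pregnant replicate 1 (0.0167, where 0.788% of all genes were called) and 0.09 without non-pregnant replicate 2. In oligodendrocytes, its highest type, the groups overlapped, with 255 and 199 CPM in pregnant and 208 and 179 CPM in non-pregnant libraries. RNA free in the suspension was left in the counts, and its part in the low neuronal values was not tested.

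The astrocyte-led genes were measured on few UMIs. Hif3a in astrocytes had 164 and 168 CPM in pregnant libraries, on 241 and 244 UMIs, and 154 and 101 CPM in non-pregnant libraries, on 120 and 125 UMIs. The log2 fold change was 0.39 (SE 0.154, adjusted p = 0.430 by edgeR). It was 0.66 without non-pregnant replicate 1, which was called (0.0467), and 0.11 without non-pregnant replicate 2. Mt1 in astrocytes had 98.1 and 120.4 CPM in pregnant and 156 and 67.6 CPM in non-pregnant libraries, so the 2 non-pregnant mice enclosed the pregnant ones (0.01, SE 0.341, adjusted p = 0.999 by edgeR). Mt2 there had 46.3 and 37.2 CPM in pregnant and 47.3 and 21.7 CPM in non-pregnant libraries (0.33, SE 0.261, adjusted p = 0.859 by edgeR). Pdk4 there had 58 and 45 UMIs in pregnant and 28 and 35 UMIs in non-pregnant libraries (0.13, SE 0.268, 0.992). These 3 values were, without non-pregnant replicate 1, 0.62 for Mt1, 0.88 for Mt2 and 0.26 for Pdk4, and without non-pregnant replicate 2, -0.52, -0.18 and -0.03, while Pdk4 was at -0.09 without pregnant replicate 1. Outside astrocytes Mt1 was higher in Pvalb interneurons, with 21 and 29 UMIs in pregnant and 12 and 5 UMIs in non-pregnant libraries (1.59, SE 0.451, adjusted p = 0.0969 by edgeR), which missed the threshold. It was 2.51 without non-pregnant replicate 1 (0.00426, where 1.56% were called) and 0.92 without non-pregnant replicate 2.

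Several genes differed most between the 2 non-pregnant mice. Sgk1 in oligodendrocytes had 222 and 169.7 CPM in pregnant libraries and 331 and 52.3 CPM in non-pregnant libraries, a 6.32-fold gap between the 2 non-pregnant mice. Its log2 fold change was 0.03 with all libraries (SE 1.14, adjusted p = 0.996 by edgeR). Without non-pregnant replicate 1 it was 1.81 (adjusted p = 7.33e-20 by edgeR), where 3.02% of genes were called, and without non-pregnant replicate 2 it was -0.78 (1.09e-04), where 0.560% were. Fkbp5 in microglia had 339 and 291 CPM in pregnant and 507 and 271 CPM in non-pregnant libraries, a 1.87-fold gap within the non-pregnant group. Its log2 fold change was -0.32 (SE 0.331, adjusted p = 0.906 by edgeR), -0.70 without non-pregnant replicate 2 (0.00176, where 0.353% of genes were called) and 0.16 without replicate 1 (0.813).

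Klf9 and Errfi1 had the same pattern in more types. Klf9 was lowest in non-pregnant replicate 2 in 14 of 15 types and highest in non-pregnant replicate 1 in 10. In L2/3 IT neurons Klf9 had 60.04 and 65.9 CPM in pregnant and 74.4 and 41.0 CPM in non-pregnant libraries, and in oligodendrocytes 129.8 and 127 CPM in pregnant and 153 and 72.9 CPM in non-pregnant libraries. Pregnant libraries lay between the non-pregnant ones in both types. Errfi1 was highest in non-pregnant replicate 1 in 13 of 15 types and lowest in non-pregnant replicate 2 in 10. In oligodendrocytes Errfi1 had 133 and 128 CPM in pregnant and 199 and 121 CPM in non-pregnant libraries (-0.33, SE 0.173, adjusted p = 0.682 by edgeR). Over all 150 pairs of a gene and a type, non-pregnant replicate 2 was lowest in 83, non-pregnant replicate 1 in 23. In microglia the groups of Klf9 did not overlap, with 35.2 and 41.2 CPM in pregnant and 24.8 and 13.6 CPM in non-pregnant libraries, on 15 to 33 UMIs (1.01, SE 0.350, adjusted p = 0.258 by edgeR), and 0.63 without non-pregnant replicate 2.

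Differences of the pregnancy effect between cell classes were tested directly, with excitatory neurons set against 4 other classes. None of the genes was called in any of the 4 comparisons. There 1.07% of all genes were called for inhibitory neurons, 0.712% for astrocytes, 0.824% for oligodendrocytes and 0.636% for microglia. At an unadjusted p below 0.05 there were 2 of 9 genes for inhibitory neurons, 1 of 10 for astrocytes, 1 of 10 for oligodendrocytes and 2 of 9 for microglia. Over all genes the counts, in the same order, were 1971 of 18979, 1284 of 18818, 1468 of 18678 and 1220 of 18715. The smallest p was that of Tsc22d3 in oligodendrocytes, where the effect was lower than in excitatory neurons by a log2 difference of -0.62 (SE 0.198, adjusted p = 0.123 by edgeR). Zbtb16 in inhibitory neurons had a difference of -0.38 (SE 0.135, adjusted p = 0.409 by edgeR), and Mt1 in astrocytes of -0.80 (SE 0.297, 0.330). In microglia Fkbp5 had -0.44 (SE 0.166, adjusted p = 0.368 by edgeR) and Klf9 0.89 (SE 0.339, 0.374), and Klf9 in inhibitory neurons had 0.25 (SE 0.105, 0.422). Without non-pregnant replicate 1, Zbtb16 in inhibitory neurons was called at -0.55 (adjusted p = 0.00548 by edgeR, 2.34% of genes called) and Sgk1 in oligodendrocytes at 1.69 (1.14e-23, 1.88%). Without non-pregnant replicate 2, Sgk1 in oligodendrocytes was called at -0.87 (adjusted p = 4.80e-10 by edgeR, 0.623% of genes called) and Fkbp5 in microglia at -0.83 (0.0218, 0.136%).

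The whole-library difference in CPM was split exactly into a part from the shares of cell types and clusters and a part from levels within them. For Hif3a, Mt2 and Pdk4, which were highest in astrocytes, the share part was above the level part, and for Mt1 it was slightly below. Without non-pregnant replicate 1 the level part was the larger for each of these 4 genes. Hif3a was 1.71 CPM higher in pregnant libraries, of which 1.00 CPM came with shares and 0.711 CPM with levels. Mt1 split into 1.01 and 1.10 CPM, Mt2 into 0.358 and 0.224 CPM, and Pdk4 into 0.208 and 0.0495 CPM, shares before levels. Astrocytes, which held 1.54% of UMIs in pregnant and 1.02% in non-pregnant libraries, alone gave a share part of 0.781 CPM for Hif3a and 0.608 CPM for Mt1. Clusters left unnamed for low depth or doublets held 3.18% of UMIs in pregnant and 1.03% in non-pregnant libraries. Their share part was 0.108 CPM for Hif3a and 0.352 CPM for Mt1. These parts are a description and carry no test.

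For Zbtb16 the share parts of different types had opposite signs. Zbtb16 was 29.9 CPM higher in pregnant libraries, with a share part of 2.08 CPM and a level part of 27.9 CPM. The level part was 49.3 CPM without non-pregnant replicate 1 and 6.44 CPM without non-pregnant replicate 2, and with clusters at resolution 2 the parts were 14.3 CPM from shares and 15.7 CPM from levels. The share part of Zbtb16 was -18.0 CPM in L2/3 IT and -18.2 CPM in L4/5 IT neurons. It was 12.3 CPM in L5 ET neurons and 17.7 CPM in the clusters of unequal share. The largest of those clusters scored nearest to L2/3 IT neurons, so the L2/3 IT value depends on the naming rule. In the clusters of unequal share non-pregnant replicate 2 held 1 nucleus with no Zbtb16 UMI, and the level part there was 10.3 CPM. With levels from under 10 nuclei not used, a choice made after seeing the data, the share part of Zbtb16 was 9.39 CPM and its level part 20.5 CPM, and those of Sgk1 were 4.26 and 1.38 CPM, against 0.790 and 4.86 CPM before. Tsc22d3 kept a level part of 2.35 to 2.45 CPM under both choices, against a share part of 0.282 to 0.395 CPM. Klf9 had -1.47 CPM from shares and 6.55 CPM from levels, but without non-pregnant replicate 2 its level part was -9.54 CPM. Errfi1 had -2.05 CPM from shares and -1.90 CPM from levels, but its level part was 5.87 CPM without non-pregnant replicate 1 and -9.66 CPM without non-pregnant replicate 2. Fkbp5 had 1.02 CPM from shares and -0.30 CPM from levels, and its level part was 2.35 CPM without non-pregnant replicate 1 and -2.95 CPM without non-pregnant replicate 2.

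**Figure D5:**
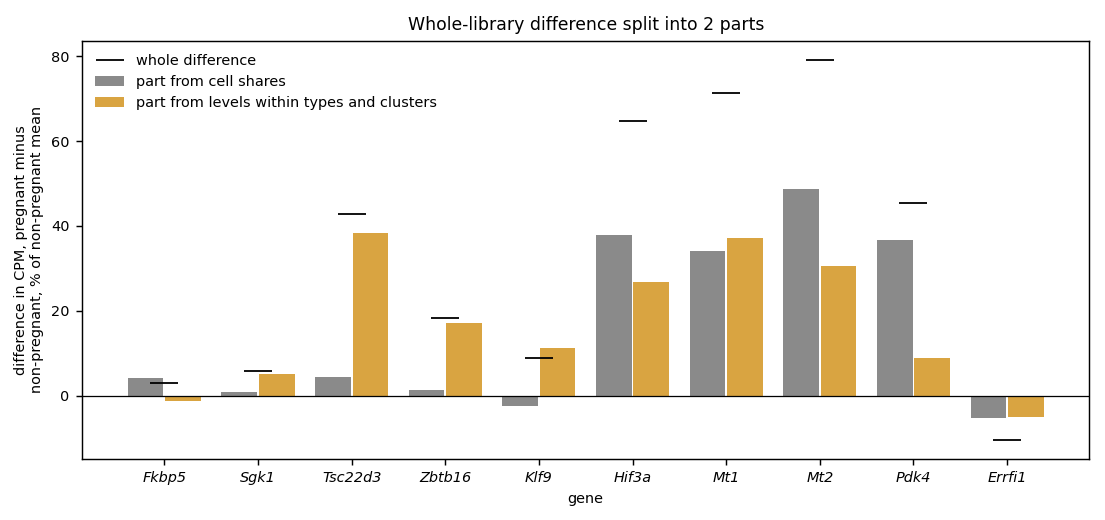
Difference in CPM between pregnant and non-pregnant libraries, as a percentage of the non-pregnant mean, split into the part from cell shares (grey) and the part from levels within types and clusters (gold), with the whole difference as a black dash. In absolute size the share part is the larger for Fkbp5, Hif3a, Mt2, Pdk4 and Errfi1. The level part is the larger for Sgk1, Tsc22d3, Zbtb16, Klf9 and, slightly, Mt1.

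With equal nuclei drawn from each named type in each library, the median log2 fold change of the 10 genes was 0.13, 8 of 10 were above 0 and none was called, where 0.265% of genes were called. In that fit Hif3a had a log2 fold change of 0.18, Mt1 of 0.36, Mt2 of 0.34 and Pdk4 of 0.065, against 0.71, 0.76, 0.84 and 0.54 with all nuclei. With named types alone the median was 0.38 and Hif3a was called (log2 fold change 0.87, adjusted p = 0.0298 by edgeR), where 1.23% were called.

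Genes that work with the receptor were counted in the same way. Of 7 coregulators of the receptor, 4 had a fold change above 0 and none was called. Of 20 other genes known to be induced by glucocorticoids 18 were tested and 13 were above 0, with a median of 0.17 and none called. The nearest among these were Fam107a, an actin-binding protein, at 0.76 (adjusted p = 0.0660 by edgeR), and Glul, glutamine synthetase, at 0.25 (0.199). Among tested types Fam107a was highest in astrocytes, at 178 CPM, and astrocytes had the larger share in pregnant libraries. The split into shares and levels was not made for these genes. Per1, the clock gene, had 36.2 and 35.3 CPM in pregnant and 48.0 and 16.8 CPM in non-pregnant libraries, so it too was lowest in non-pregnant replicate 2. In cell types Pik3r1, a subunit of phosphoinositide kinase, rose in L6 CT neurons (0.47, adjusted p = 0.0483 by edgeR) and Bcl6, a transcriptional repressor, fell in astrocytes (-0.92, 0.00656). Hsd11b1, which regenerates active glucocorticoid, fell in L5 ET neurons (-1.27, adjusted p = 0.0311 by edgeR), with 3.31 and 2.34 CPM in pregnant and 8.48 and 5.76 CPM in non-pregnant libraries.

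Some chaperones of the receptor rose in single types, where the share of all genes called was 1.56% in L5/6 NP, 1.02% in L6 IT, 1.26% in L6 CT, 0.907% in Pvalb, 0.544% in astrocytes, 0.0902% in OPC and 0.810% in microglia. Hsp90aa1, which holds the receptor in its hormone-binding form, rose in L6 IT neurons (log2 fold change 0.64, adjusted p = 0.0199 by edgeR), astrocytes (0.66, 0.0494) and OPC (1.03, 0.00326). Hspa8 rose in astrocytes (0.66, adjusted p = 0.0414 by edgeR) and Hsp90ab1 in microglia (0.72, 0.00564). Non-pregnant replicate 2 was the lowest whole library for each of them, with 51.4 CPM of Hsp90aa1, 30.0 of Hspa8 and 64.1 of Hsp90ab1. Non-pregnant replicate 1 had 73.3, 65.8 and 103 CPM in the same order. In the whole library all 8 chaperones had a fold change above 0 and none was called, with Hsp90aa1 at 0.51 (adjusted p = 0.446 by edgeR) and Fkbp4 at 0.16 (0.606). Egr1, an immediate early gene, rose in astrocytes (1.77, adjusted p = 0.0423 by edgeR), where non-pregnant replicate 2 had 1.61 CPM against 11.5 CPM in non-pregnant replicate 1. Zbtb20, a relative of Zbtb16, fell in L5/6 NP (-0.64, adjusted p = 0.00597 by edgeR) and Pvalb neurons (-0.75, 1.97e-04). In the whole library the nearest relatives were Klf2 at 0.92 (adjusted p = 0.0564 by edgeR) and Epas1 at 0.66 (0.0635). The part of cell shares in these 2 values was not tested.

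None of the remaining lists had a gene called in the whole library. All 5 genes for receptors and ligand handling had a fold change above 0, with Abcb1a, a transporter that exports steroids at the blood-brain barrier, at 0.71 (adjusted p = 0.303 by edgeR). Abcb1a was among the endothelial markers, and endothelial cells made up 0.653% of pregnant and 0.283% of non-pregnant nuclei. The part of this share in its fold change was not tested. The coregulator with the smallest p was Ncoa3, at -0.12 (adjusted p = 0.554 by edgeR). Of 8 hypoxia-induced genes 6 were above 0, with Pfkfb3, a regulator of glycolysis, at -0.51 (adjusted p = 0.145 by edgeR) and Vegfa, a vessel growth factor, at 0.17 (0.446). Of 4 other metal-responsive genes 1 was above 0, the zinc exporter Slc30a1 at 0.17 (adjusted p = 0.733 by edgeR), and the zinc importer Slc39a10 was at -0.09 (0.659). The red blood cell genes Hbb-bt and Hba-a2 had 3.10 (adjusted p = 0.230 by edgeR) and 2.77 (0.244), and Hbb-bs was called in single types, among them astrocytes at 3.57 (1.38e-08), the type in which Hif3a, Mt1, Mt2 and Pdk4 were highest. Egr1 was at 0.59 (adjusted p = 0.934 by edgeR).

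Over the 15 types, levels of Mt1 and Mt2 had the highest correlation of any pair of the 10 genes (Pearson r 0.95 on log2 CPM + 1), and Hif3a and Pdk4 followed at 0.90. Sgk1 ran opposite to Mt2, at -0.71. The 15 points share libraries and were clustered on the same counts, so these values describe and carry no test. Among 15395 other genes the patterns nearest to Mt2 were those of Mfge8, Fam107a and Aldoc (0.986 to 0.993), and those nearest to Pdk4 were Gm33841, Itih3 and Paqr6 (0.988 to 0.995). For Mt1 they were Echdc1, Tprkb and Gm15713 (0.963 to 0.976) and for Hif3a Gm7967, Gli2 and Maob (0.921 to 0.953). Plin3, Mfsd14a and Aph1a were nearest to Tsc22d3 (0.968 to 0.973) and Gm22146, Malt1 and Ankrd10 to Fkbp5 (0.928 to 0.944). Klf9 (Pacsin3, Ccdc13 and Gabbr1), Errfi1 (Rexo2, Fbl and Stambp), Zbtb16 (Tmem62, Fgf22 and Otud7a) and Sgk1 (Pvr, Morc4 and Mthfd1l) had no gene above the 0.900 of Pacsin3 with Klf9.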

How the data were processed

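Nuclei from cortex of 4 mice were profiled with 10x GEM-X 3' chemistry, per the labels' protocols. The deposited matrices hold whole-number UMI counts per gene and barcode, made by the authors with Cell Ranger 10.0.0 on GRCm39, per the submitters' processing notes. No empty droplets were used here, so free RNA was not subtracted, and 3' counts were not scaled to length, so levels are compared within a gene only.

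Nuclei with under 500 genes or over 5% mitochondrial UMIs, and the 5% of each library with the highest doublet score against simulated doublets, were left out. Leiden clustering (scanpy 1.11.5, resolution 1) was followed by naming from fixed marker lists. A cluster with leading genes of another class, many doublets, low depth or unequal share stayed unnamed.

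Summed counts were tested with edgeR 4.0.16 (quasi-likelihood, TMM, minimum count 10, Benjamini-Hochberg within each unit, called below an adjusted p of 0.05), tested on simulated data first. With 2 libraries a group an exact permutation test cannot go below 0.333, so none was used. The interaction test took the animal as a block. Alternatives were DESeq2 1.42.0, RLE size factors, no filter, each library left out, a replicate block, doublets kept, equal nuclei, named types only and resolution 2. The 10 genes and the other lists were chosen with earlier results of these data known. All 10 genes are named, with each called gene and type, the 3 types with the highest mean, the 2 genes of other lists with the smallest p (1 for the coregulators, where the other is not reported here), and the 3 genes of most similar pattern. Gene and type pairs shown for a low unadjusted p or for spread between animals were chosen after their values were seen.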

Additional observations from a re-analysis of the deposited data

How the results depend on the processing

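The count of the 10 genes called in the whole library was 0, against 3 with DESeq2, 2 with no filter, 1 with doublets kept, 1 with named types only and 0 to 6 when each library was left out. The count of called pairs in cell types was 1, against 5 with no filter and 0 to 20 with each library left out. Differences between classes ranged from 0 to 2 called with a library left out, and genes whose share part was larger in absolute size than their level part from 0 to 5, against 5 with all libraries. Log2 fold changes that reversed are given as the lowest and highest with 1 library left out. In the whole library these were -0.10 and 0.16 for Fkbp5 (-0.040 with equal nuclei), -0.21 and 0.51 for Klf9, and -0.41 and 0.10 for Errfi1. In cell types they were -0.70 and 0.16 for Fkbp5 in microglia, -0.30 and 0.58 for Klf9 in L2/3 IT neurons, -0.64 and 0.013 for Errfi1 in oligodendrocytes, and -0.78 and 1.81 for Sgk1 in oligodendrocytes (-0.23 without pregnant replicate 1, -0.012 with DESeq2 and -0.012 at resolution 2). The cause was not tested. Whether replicate numbers pair the mice is not known. The difference of replicate 1 and 2 had a correlation of -0.0184 between the groups over 20914 genes, and 1 such value cannot decide it. With replicate numbers as a block 3 genes were called in the whole library and 3 pairs in cell types. Refits of single genes were counted for the 10 genes in the whole library and for pairs picked for a low unadjusted p or for spread between animals. The other tested pairs are not among them. Of these refits 379 kept direction and side of the threshold, 46 newly passed, 1 no longer passed and 11 reversed. The share part of Sgk1 moved to 4.26 CPM with levels from under 10 nuclei not used. Depth limits Pdk4 and Mt2, with 51 to 81 and 62 to 134 UMIs per library.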
